A study of Mus musculus with 4 samples.

Results

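The SREBP genes and the genes of the machinery that processes their products were followed in liver RNA of male C57BL/6 mice aged 12 weeks. All animals had gone without food for 24 h and then had food again for 12 h. The 4 libraries were 2 labelled SREBP1c WT (WT) and 2 labelled SREBP1c KO (KO). How the KO allele was made, and whether the groups were littermates, is not given in the sources used here. Members were the 7 genes Srebf1, Srebf2, Scap, Mbtps1, Mbtps2, Insig1 and Insig2, found by symbol among the 23920 genes of the deposited FPKM table. FPKM scales fragments to transcript length and library size and is thus a level per length, so levels of different genes can be set side by side. The 7 genes held 12 of the 33170 transcript rows. The rows of each gene were summed, and single rows were also kept.

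SREBPs are transcription factors that are made as precursors held in the membrane of the endoplasmic reticulum (ER). SCAP escorts them to the Golgi in COPII vesicles, where the site-1 protease (Mbtps1) and then the site-2 protease (Mbtps2) release the part that enters the nucleus. When sterols are plentiful, the INSIG proteins hold SCAP and its cargo in the ER. In liver, SREBP1c from Srebf1 drives fatty acid synthesis after a meal and SREBP2 from Srebf2 drives cholesterol synthesis and uptake, while Insig1 is itself an SREBP target and Insig2 has a liver transcript that insulin lowers.

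Values of low genes lay in part on steps of 1 fragment, which implied 21.0 M to 23.2 M (mega) fragments per library. Only 47.6% to 51.0% of the low values used came within 0.1 of an integer number, so the fragment numbers below are approximate and no count test was run. Hepatocyte markers summed to 38638 to 43603 FPKM in WT and 39503 to 44868 FPKM in KO, and none of the 13 was at 0. Markers of other cells were low: Kupffer cell genes summed to 77.5 to 95.7 FPKM in WT and 73.4 to 128 FPKM in KO, stellate cell genes to 52.0 to 57.1 and 56.1 to 56.5, endothelial genes to 59.9 to 61.8 and 64.6 to 78.1, and lymphocyte and neutrophil genes to 11.4 to 13.3 and 8.42 to 26.9. Cholangiocyte genes summed to 23.6 to 25.7 FPKM in WT and 41.8 to 50.9 FPKM in KO, mostly through Spp1, and adipocyte genes to at most 0.59 in WT and to 3.86 and 32.4 in KO through Cfd, while Lep was listed at 0. Red blood cell genes summed to 193 to 533 FPKM in WT and 173 to 351 in KO. In the pancreas list 6 of 7 markers were listed at 0. The other, Cela1, had 13.7 to 16.6 FPKM in WT and 14.8 to 25.4 FPKM in KO. No marker passed the test described next. The part of these lists in the results below was not tested. In such bulk RNA, fewer cells of a type and less RNA per cell cannot be told apart.

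Differences were tested with limma on log2(FPKM + 1) over the 9820 genes with a mean of at least 1 FPKM, and a log2 difference below is KO minus WT on that scale. All 7 members were tested. Srebf1 passed at an adjusted p under 0.05, where 7 of all genes tested (0.0713%) passed, 0.0611% lower and 0.0102% higher in KO, and none of the other 6 members did. The 2 WT and 2 KO values did not overlap for Srebf1, lower in KO, and for Srebf2, higher in KO. That is 2 of 7 members, against 38.7% of all genes tested (22.4% higher and 16.4% lower). At an unadjusted limma p under 0.05 the same 2 members stood, against 7.75% of all genes tested.

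**Figure D1:**
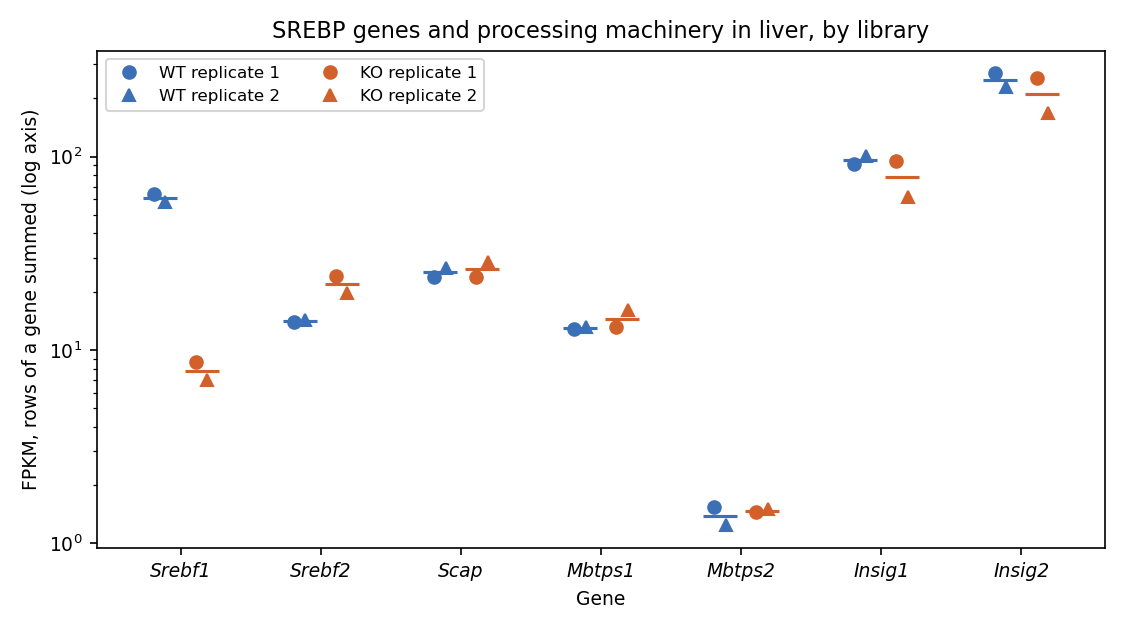
FPKM of each member (rows summed, log axis) in the WT libraries (blue) and KO libraries (orange), with replicate 1 as circles, replicate 2 as triangles and the group mean as a bar. Srebf1 is low in both KO libraries, Srebf2 is higher in both, and Insig1 and Insig2 are low in KO replicate 2 only.

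Srebf1 lies on chromosome 11 (60199084 to 60224186, mm10) and encodes SREBP1a and SREBP1c, which differ in their first exon. Its single row, NM_011480, had 63.7 and 58.2 FPKM in WT against 8.63 and 6.97 FPKM in KO. The means were 60.9 ± 3.91 and 7.80 ± 1.17 FPKM (SD, n = 2 each), so KO kept 12.8% of the WT level, with about 857 and 629 fragments against 6363 and 5276. The log2 difference was −2.82 (SE 0.13, 95% interval −3.14 to −2.50, limma adjusted p = 0.00172), with the KO values far under the WT values, and larger in size than that of 99.9% of all genes tested. It is the gene the KO label names, and which of its exons the allele removes is not given in the sources used here. Leaving out WT replicate 1 gave −2.76 with an adjusted p of 0.136, leaving out WT replicate 2 gave −2.88 with 0.0923, and keeping genes of low values gave −2.82 with 0.104.

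The row does not tell the products apart. The matching GENCODE transcript starts at 60220604 on the minus strand and has 3402 coding bases (1134 codons). RefSeq gives 3 starts for the gene, at 60222581, 60220627 and 60210471, the last of them 10133 bases beyond the start of that transcript and in one of its introns. Of the 4299 exon bases of the row, 4147 (96.5%) lie beyond that last start, so a transcript from either of the last 2 starts could supply nearly all of the fragments. The RefSeq windows of 300 bases (250 before and 50 after each start, GRCm38.p6, 5′ to 3′ on the gene's strand) are shown for the middle and last starts because they separate these 2. Capitals mark any match on either strand to the LXR element described in the SREBP1c promoter, to TCACNCCA, the core of the sterol regulatory element (SRE), to the E-box CACGTG, to the NF-Y box CCAAT or to the Sp1 box GGGCGG.
Srebf1 middle start, chr11:60220578-60220877, minus strand: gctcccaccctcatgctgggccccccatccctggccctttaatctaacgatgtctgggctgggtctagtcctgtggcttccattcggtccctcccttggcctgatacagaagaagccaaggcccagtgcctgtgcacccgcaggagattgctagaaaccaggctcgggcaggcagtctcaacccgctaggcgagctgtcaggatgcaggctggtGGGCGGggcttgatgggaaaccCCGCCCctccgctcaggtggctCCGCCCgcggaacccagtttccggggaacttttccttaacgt
Srebf1 last start, chr11:60210422-60210721, minus strand: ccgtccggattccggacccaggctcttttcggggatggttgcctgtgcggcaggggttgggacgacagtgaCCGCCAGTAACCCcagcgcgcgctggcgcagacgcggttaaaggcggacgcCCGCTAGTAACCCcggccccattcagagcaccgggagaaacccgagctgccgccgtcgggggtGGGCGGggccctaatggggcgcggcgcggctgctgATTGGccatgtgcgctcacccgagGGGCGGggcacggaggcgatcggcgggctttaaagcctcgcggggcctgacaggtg
The last window holds 2 copies of the LXR element, CCGCCAGTAACCC and CCGCTAGTAACCC on this strand, at −179 and −128 from the start. It was the only one of 32851 such windows in the genome with those letters (0.00304%). The letters searched are those described in the SREBP1c promoter itself, so this share does not measure how rare LXR elements are. The middle window holds 3 Sp1 boxes and no other match, the window of the first start (60222532 to 60222831) 1 NF-Y box and no other match, and Sp1 boxes were in 35.7% of all windows. No exact match to TCACNCCA or to CACGTG was in any of the 3. Sites with other letters were not searched, so these windows may still hold an SRE or an E-box. The motifs were chosen with the sequences in view, and a match is a description of letters only.

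Srebf2 lies on chromosome 15 (82147269 to 82205379) and encodes SREBP2. Its single row had 13.9 and 14.3 FPKM in WT, which differed by little, against 24.2 and 19.7 FPKM in KO. Both KO libraries were above both WT libraries, with means of 14.1 ± 0.27 and 21.9 ± 3.13 FPKM (SD, n = 2 each), a ratio of 1.55. The log2 difference of 0.59 (SE 0.13, 95% interval 0.28 to 0.90) did not pass after adjustment (limma adjusted p = 0.324, unadjusted p = 0.00347), although 97.6% of all genes tested had a smaller one. Without KO replicate 2 it passed (0.73, adjusted p = 0.0438), and without KO replicate 1 it was 0.45 (adjusted p = 0.122), both with the lone KO library assumed to vary like the WT pair.

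The Srebf2 window is shown as that of the member that lay higher in KO.
Srebf2, chr15:82147019-82147318, plus strand: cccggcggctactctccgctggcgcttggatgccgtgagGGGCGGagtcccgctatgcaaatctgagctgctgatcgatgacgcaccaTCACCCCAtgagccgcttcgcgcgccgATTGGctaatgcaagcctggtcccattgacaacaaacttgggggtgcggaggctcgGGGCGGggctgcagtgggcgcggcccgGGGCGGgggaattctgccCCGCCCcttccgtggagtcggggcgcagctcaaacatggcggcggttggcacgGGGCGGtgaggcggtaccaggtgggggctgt
It was the only member window with an exact match to the SRE core, as TCACCCCA at −162 from the start. The core was in 4.36% of all windows and the longer form TCACNCCAC, which no member window held, in 1.24%. The window also holds 1 NF-Y box, found in 37.4% of all windows, and 5 Sp1 boxes. An intron of Srebf2 (the sixteenth) carries the microRNA gene Mir33, whose products are known to lower cholesterol exporters. The mature miR-33-5p, with its seed (bases 2 to 8) in capitals, comes from chr15:82198127-82198147, plus strand.
mmu-miR-33-5p: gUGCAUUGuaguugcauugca
Its precursor, of 69 bases, was listed at 0 FPKM in all 4 libraries, so the table gives no reading of the microRNA beside its host gene.

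Among SREBP messages the more abundant gene was Srebf1 in WT and Srebf2 in KO. Srebf1 and Srebf2 together had 77.6 and 72.5 FPKM in WT against 32.8 and 26.7 FPKM in KO. Srebf2 made up 18.0% and 19.8% of that sum in WT and 73.7% and 73.9% in KO. The ratio of Srebf2 to Srebf1 was 0.219 and 0.246 in WT against 2.80 and 2.83 in KO, a 12.1-fold difference in which the KO libraries nearly coincided. The share and the ratio both include Srebf1, the gene the KO label names, so neither is a result about Srebf2 alone. Srebf1 was 7.81-fold higher in WT, and Srebf2 was 1.55-fold higher in KO without passing the threshold. The larger part of the difference thus came from Srebf1. A two-sided exact permutation test gave p = 0.33, the smallest value that 2 libraries against 2 allow. With any 1 library left out the log2 difference of the ratio stayed between 3.51 and 3.68.

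**Figure D2:**
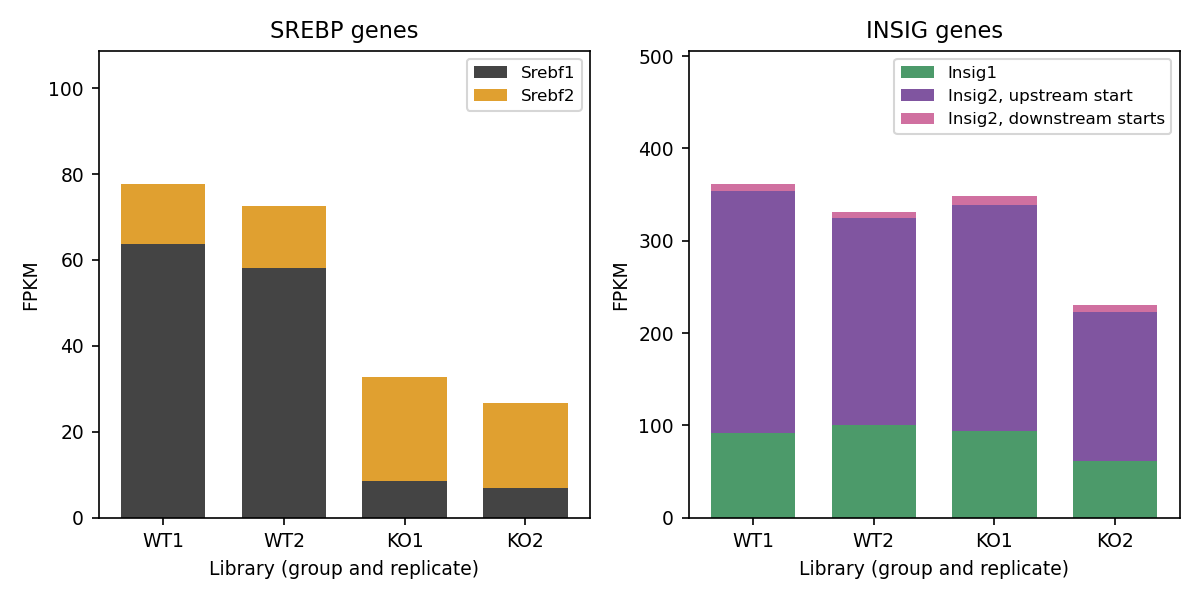
Stacked FPKM in each library for Srebf1 and Srebf2 (left) and for Insig1 and the Insig2 rows by start site (right). The Srebf2 share of the left bars goes from 18.0% and 19.8% in WT to 73.7% and 73.9% in KO, while Insig2 makes up 69.7% to 74.7% of the right bars, which are lowest in KO replicate 2. The left bars include Srebf1, the gene the KO label names.

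Scap, which encodes the escort protein, lies on chromosome 9 (110333288 to 110384949). Its summed rows had 24.0 and 26.4 FPKM in WT against 23.9 and 28.4 FPKM in KO, so the groups overlapped. The log2 difference was 0.05 (SE 0.13, limma adjusted p = 0.946), with a 95% interval from −0.26 to 0.36. On the log2(FPKM + 1) scale that interval spans ratios of 0.837 to 1.28. The sign turned to −0.07 without KO replicate 2. Both rows of Scap match the same GENCODE transcript, so nothing here tells their fragments apart. NM_001001144 held 62.3% to 78.8% of the sum over the 4 libraries.

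The proteases also overlapped between the groups. Mbtps1, on chromosome 8 (119508151 to 119558864), encodes a serine protease of the Golgi that makes the first cut. It had 12.9 and 13.2 FPKM in WT against 13.1 and 16.0 FPKM in KO, where KO replicate 2 was the highest library and KO replicate 1 lay between the WT values. The log2 difference was 0.14 (SE 0.13, 95% interval −0.17 to 0.45, limma adjusted p = 0.832). Its NM_001167910 row carried 92.0% or more of the sum. The other row, NM_019709, had 1.03 and 0.20 FPKM in WT against 0.42 and 3.7e-05 FPKM in KO and was under the filter. It differs by 149 exon bases, and both rows have the same coding bases.

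Mbtps2, on chromosome X (157547822 to 157598715), encodes the metalloprotease that makes the second cut inside the membrane. It was the lowest member, with 1.54 and 1.23 FPKM in WT against 1.44 and 1.49 FPKM in KO. Only 7.03% of all genes tested had a lower mean, and between 125 and 171 fragments stood behind each value, which alone gives a counting error of 7.65% to 8.94%. The other members had a counting error of 1.10% to 3.99%. The log2 difference was 0.05 (SE 0.12, 95% interval −0.23 to 0.34, limma adjusted p = 0.940). The ratio of Mbtps1 to Mbtps2 was 8.36 and 10.7 in WT against 9.04 and 10.7 in KO, so the first protease stayed several-fold above the second in each library.

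Insig1 and Insig2 were the highest members. Insig1, on chromosome 5 (28071412 to 28078662), had 91.3 and 100.3 FPKM in WT against 94.5 and 61.8 FPKM in KO. KO replicate 1 lay between the WT libraries and KO replicate 2 lay below both, so the SD was 6.31 in WT and 23.1 in KO (n = 2 each). The log2 difference was −0.32 (SE 0.21, 95% interval −0.83 to 0.19, limma adjusted p = 0.753), −0.02 without KO replicate 2 and −0.62 without KO replicate 1, where it passed (adjusted p = 0.0330) with the lone KO library assumed to vary like the WT pair.

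Insig2, on chromosome 1 (121304353 to 121332662), had 270 and 231 FPKM over its rows in WT against 254 and 168 FPKM in KO. It was the highest member in every library, and 96.1% of all genes tested had a lower mean. The pattern over the libraries was like that of Insig1: KO replicate 1 lay between the WT values and KO replicate 2 below both. The log2 difference was −0.27 (SE 0.22, 95% interval −0.80 to 0.26, limma adjusted p = 0.806), and 0.03 without KO replicate 2. KO replicate 2 lay at −0.62 for Insig1 and −0.57 for Insig2, as log2 differences from the mean of WT.

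The 4 rows of Insig2 fall into 2 start regions. NM_178082 starts at 121332589 on the minus strand, and the other 3 rows start 4565 to 4911 bases further downstream, within 346 bases of each other. The upstream row had 262 and 225 FPKM in WT against 244 and 161 FPKM in KO and made up 97.2% and 97.5% of Insig2 in WT and 96.1% and 95.7% in KO. Liver Insig2 message in this table was thus almost wholly assigned to the upstream start in each library. A downstream-start row, NM_133748, had 3.66 and 3.09 FPKM in WT against 5.24 and 5.19 FPKM in KO, both KO libraries being above both WT libraries. Its log2 difference was 0.51 (SE 0.13, 95% interval 0.18 to 0.84), which did not pass over the 11494 rows tested (limma adjusted p = 0.577, unadjusted p = 0.0104).

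NM_133748 has a longer last exon, and 1474 of its 2697 exon bases are in no other Insig2 row. The remaining rows were low in each library. NM_001271531 had 2.31 and 1.42 FPKM in WT against 2.50 and 0.59 FPKM in KO, and NM_001271532 had 1.71 and 1.27 in WT against 2.13 and 1.42 in KO. NM_001271532 has 351 coding bases, where the others have 675. Summed, the downstream-start rows had 7.68 and 5.78 FPKM in WT against 9.86 and 7.19 FPKM in KO, which overlap. Their ratio to the upstream row was 0.0293 and 0.0257 in WT against 0.0404 and 0.0447 in KO, 1.55-fold higher in KO with no overlap (two-sided exact permutation p = 0.33, the smallest possible). These rows have most exons in common, and how the authors' program shared fragments between them was not tested. Of the 1292 exon bases of NM_178082, 98 are in no other Insig2 row. Whether the ratio of the rows follows the use of the starts was not tested. Of the 11 member rows tested, 1 (Srebf1) passed, against 0.0435% of all rows, and 3 did not overlap between the groups, against 37.9% of all rows.

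**Figure D3:**
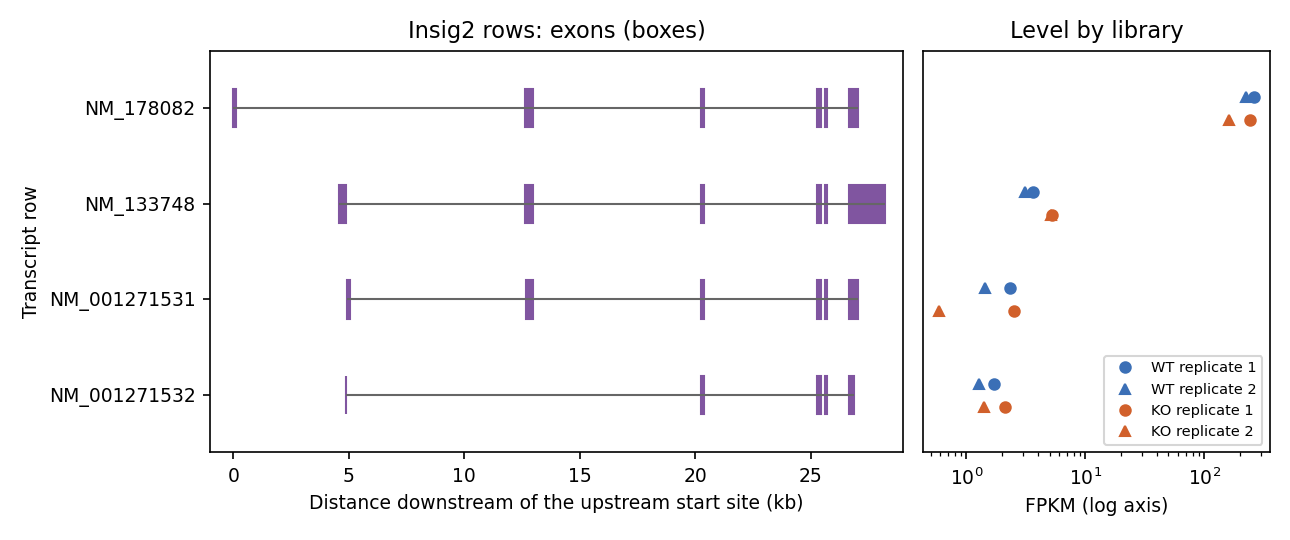
Exons of the 4 Insig2 rows as boxes against distance from the upstream start in kb (left), and FPKM of each row by library on a log axis (right). NM_178082 lies at 161 to 262 FPKM in the 4 libraries, and the 3 rows with downstream starts lie at 0.59 to 5.24 FPKM.

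The INSIG windows are shown because the Insig2 rows with upstream and downstream starts differ so much in assigned level.
Insig1, chr5:28071162-28071461, plus strand: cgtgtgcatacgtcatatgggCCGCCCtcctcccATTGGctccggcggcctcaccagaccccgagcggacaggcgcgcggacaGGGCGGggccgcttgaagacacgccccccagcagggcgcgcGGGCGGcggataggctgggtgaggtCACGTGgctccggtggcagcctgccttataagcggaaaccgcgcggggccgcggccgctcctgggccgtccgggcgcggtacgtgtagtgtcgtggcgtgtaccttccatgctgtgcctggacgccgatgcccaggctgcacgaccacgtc
Insig2 upstream start, chr1:121332540-121332839, minus strand: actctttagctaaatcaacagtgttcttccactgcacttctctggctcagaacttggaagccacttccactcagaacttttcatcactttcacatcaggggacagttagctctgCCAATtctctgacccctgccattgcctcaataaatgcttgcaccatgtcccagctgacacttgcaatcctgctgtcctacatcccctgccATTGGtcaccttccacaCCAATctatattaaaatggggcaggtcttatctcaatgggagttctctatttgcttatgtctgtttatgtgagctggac
Insig2 downstream start, chr1:121327975-121328274, minus strand: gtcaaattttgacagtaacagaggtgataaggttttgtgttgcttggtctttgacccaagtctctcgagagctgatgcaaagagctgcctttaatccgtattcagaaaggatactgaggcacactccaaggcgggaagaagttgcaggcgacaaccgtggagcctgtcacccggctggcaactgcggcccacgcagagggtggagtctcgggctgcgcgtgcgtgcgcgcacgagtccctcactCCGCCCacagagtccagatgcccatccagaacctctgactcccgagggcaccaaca
The upstream window of Insig2 has 46.0% G and C and holds 3 NF-Y boxes and no Sp1 box. The downstream window shown has 57.0% G and C and holds 1 Sp1 box and no NF-Y box, and a second downstream window (121327629 to 121327928), with 69.3% G and C, also holds 1 Sp1 box and no NF-Y box. The Insig1 window has 71.7% G and C and holds 1 E-box, 1 NF-Y box and 3 Sp1 boxes, and E-boxes were in 7.15% of all windows. No exact match to the SRE core was in these 4 windows, and sites with other letters were not searched.

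**Figure D4:**
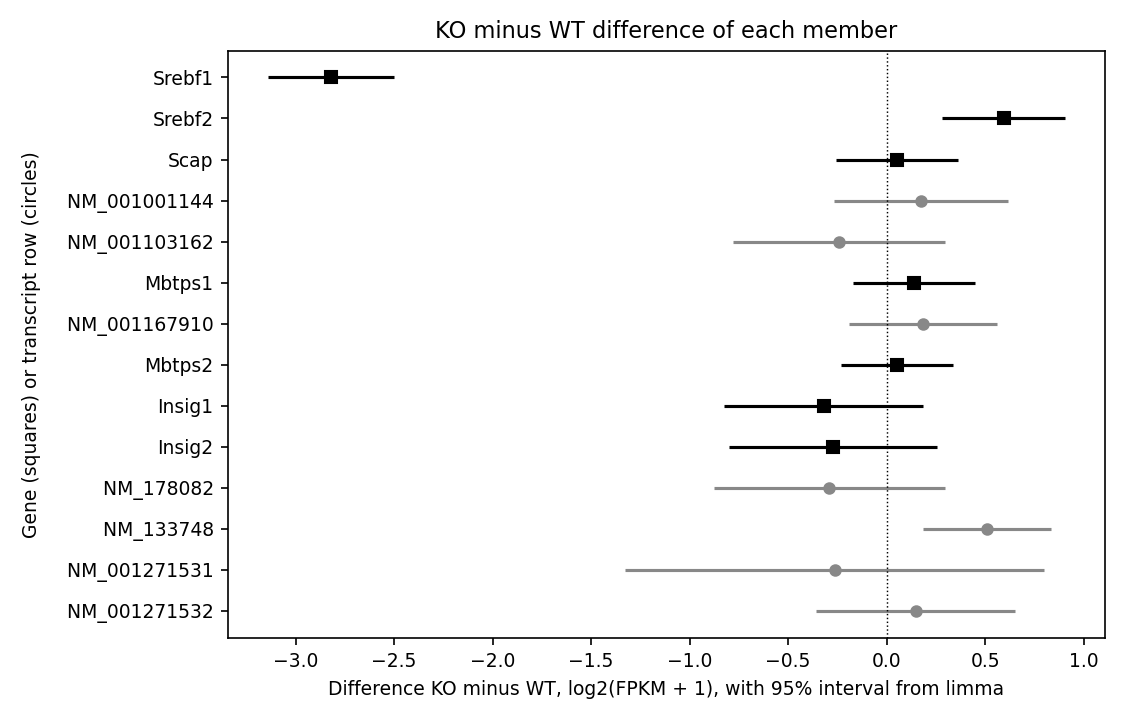
KO minus WT difference on the log2(FPKM + 1) scale with its 95% limma interval, for the summed members (squares) and the single rows of Scap, Mbtps1 and Insig2 (circles). The intervals of Srebf1 (−3.14 to −2.50), Srebf2 (0.28 to 0.90) and NM_133748 (0.18 to 0.84) do not include 0.

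The order of the levels in WT was Insig2 (250 FPKM), Insig1 (95.8), Srebf1 (60.9), Scap (25.2), Srebf2 (14.1), Mbtps1 (13.0) and Mbtps2 (1.39). These are means of 2 libraries, and no neighbours in that order overlapped, although Srebf2 and Mbtps1 were close. In KO the order was Insig2 (211), Insig1 (78.1), Scap (26.2), Srebf2 (21.9), Mbtps1 (14.5), Srebf1 (7.80) and Mbtps2 (1.47). Scap at 23.9 and 28.4 FPKM overlapped there with Srebf2 at 24.2 and 19.7 FPKM. Srebf1 moved from the third to the sixth place, below Srebf2 and Mbtps1.

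Ratios between the parts of the machinery were taken within each library. Insig1 and Insig2 together were 15.1 and 12.6 times Scap in WT against 14.6 and 8.09 times in KO. Srebf1 and Srebf2 together were 3.24 and 2.75 times Scap in WT against 1.37 and 0.939 times in KO. Per SREBP message the INSIG sum was 4.65 and 4.57 in WT against 10.6 and 8.61 in KO, 2.08-fold higher. For the last 2 ratios the groups did not overlap (two-sided exact permutation p = 0.33 for each). Both ratios hold the SREBP sum, which includes Srebf1, the gene the KO label names. That sum had 77.6 and 72.5 FPKM in WT against 32.8 and 26.7 FPKM in KO. The INSIG sum was not higher in KO, with 361 and 331 FPKM in WT against 349 and 230 FPKM in KO, which overlap. The ratio of Insig1 to Insig2, at 0.338 and 0.435 in WT against 0.372 and 0.368 in KO, overlapped (p = 1 by the same exact test).

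Of the genes that SREBP2 and sterols control, leaving out the members, 23 were tested and none passed over all genes. Their median log2 difference was 0.65, against 0.02 for all genes tested. Of the 23, 22 were positive, against 5361 of all 9820 genes tested. For 12 both KO values lay above both WT values, while for 0 they lay below. That is 52.2%, against 22.4% of all genes in that direction, and 10 of the 23 had an unadjusted limma p under 0.05, against 7.75% of all genes tested. Idi1, the isopentenyl diphosphate isomerase gene, had 184 and 163 FPKM in WT against 582 and 231 FPKM in KO. Fdps, the farnesyl diphosphate synthase gene, had 361 and 293 in WT against 790 and 342 in KO. The KO libraries differed: in KO replicate 1, 23 of 23 genes lay above the WT mean, with a median of 1.24, and in KO replicate 2, 15 did, with a median of 0.07. Without KO replicate 2 the median was 1.24 and 16 of the 23 passed, among 117 genes in all, and without KO replicate 1 it was 0.07 and 4 passed, among 306 genes in all. In both fits the lone KO library is assumed to vary like the WT pair.

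The members differed in where they lay relative to these genes, and Srebf2 lay within their range in both KO libraries. Srebf2 was above the WT mean in both KO libraries, by 0.73 and 0.45, with 15 of the 23 genes above it in KO replicate 1 and 7 in KO replicate 2. Srebf1, Insig1 and Insig2 lay below each of the 23 genes in both KO libraries. In KO replicate 1, where all 23 genes lay above the WT mean, Scap, Mbtps1 and Mbtps2 also lay below each of them. Insig1 was at −0.02 in KO replicate 1, where the lowest of the 23 was at 0.08, and at −0.62 in KO replicate 2, where the lowest was at −0.52. Chosen with these values in view, this position is a description without a test.

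**Figure D5:**
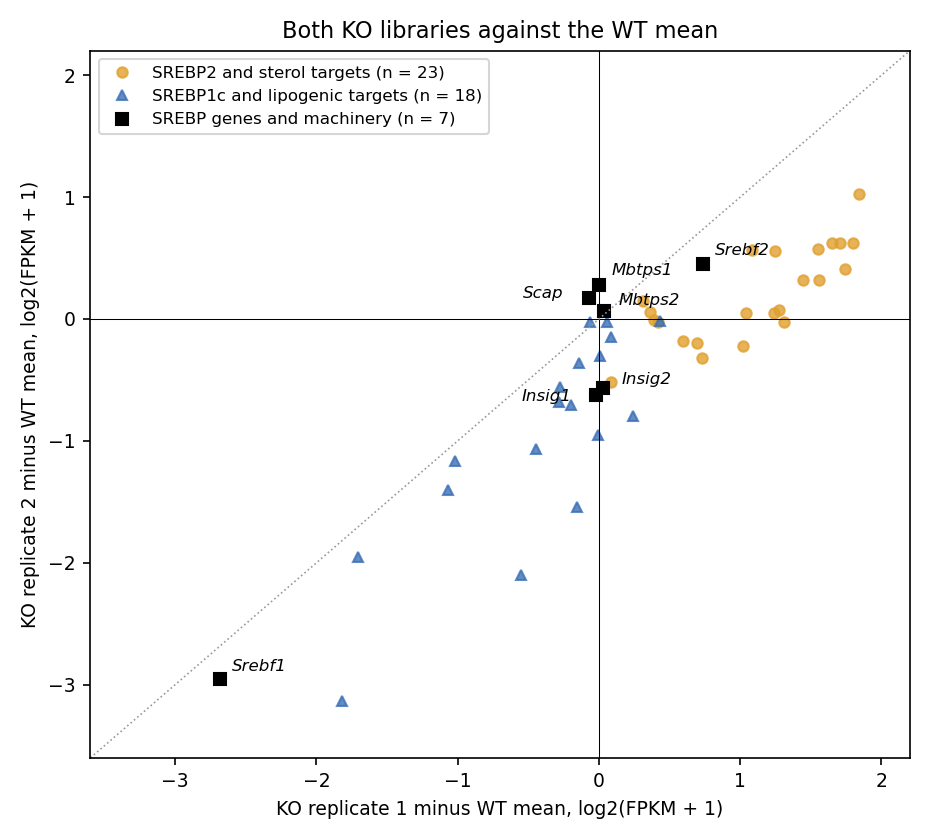
Each KO library minus the WT mean on the log2(FPKM + 1) scale, KO replicate 1 on the x axis and replicate 2 on the y axis, for the 7 members (squares), 23 SREBP2 and sterol targets (circles) and 18 SREBP1c and lipogenic targets (triangles). Insig1 and Insig2 lie beside the lowest circles, Srebf2 lies among the circles, and points below the dotted line are lower in KO replicate 2 than in KO replicate 1.

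Of the lipogenic targets of SREBP1c, 18 were tested and none passed over all genes. The median was −0.47, and 16 were negative, where 45.4% of all genes tested were below 0. Both KO values lay below both WT values for 9 (50%, against 16.4% of all genes in that direction), while 0 had them above. Thrsp, a lipogenic gene of liver, had 450 and 188 FPKM in WT against 81.8 and 32.4 in KO (log2 difference −2.48, limma adjusted p = 0.326). Acacb, which encodes a carboxylase that makes malonyl-CoA, had 12.2 and 8.72 FPKM in WT against 2.47 and 1.93 in KO (log2 difference −1.83, limma adjusted p = 0.0544), and Gpam, which starts glycerolipid synthesis, 69.1 and 51.5 in WT against 27.8 and 22.0 in KO (log2 difference −1.24, limma adjusted p = 0.165). For these 3 genes both KO values lay below both WT values. Dgat2, which makes triglyceride, had 203 and 181 FPKM in WT against 184 and 188 in KO, and Agpat2, an acyltransferase of glycerolipid synthesis, 180 and 165 in WT against 183 and 155 in KO, so these overlapped. Relative to the mean of WT, the median was −0.18 both in KO replicate 1 and in WT replicate 2, while it was −0.75 in KO replicate 2. With 1 library left out the median stayed between −0.75 and −0.18. With the replicate number as a block 3 of the 18 passed, among 19 of all 9820 genes tested. With a pseudocount of 0.1 the count was 1, among 11 of all genes, and with a robust prior 1, among 15 of all genes.

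Genes of the steps around the members gave no call. Of the COPII coat genes that carry SCAP out of the ER, 14 were tested, the median was −0.04, and 2 were higher and 2 lower without overlap (28.6%, against 38.7% of all genes tested). Sec24a, a cargo-binding coat subunit, had 17.8 and 16.7 FPKM in WT against 14.3 and 13.1 FPKM in KO (log2 difference −0.31, limma adjusted p = 0.570). Sar1b, the GTPase that starts the coat, had 183 and 175 in WT against 180 and 121 in KO. Genes of ER retention and of INSIG or SCAP turnover numbered 23, with a median of −0.01 and 7 higher and 5 lower without overlap (52.2%, against 38.7% of all genes tested). Syvn1, an ER ubiquitin ligase gene, had 36.9 and 33.7 FPKM in WT against 39.9 and 68.8 FPKM in KO, Hspa5, the ER chaperone BiP, 606 and 504 in WT against 519 and 821 in KO, and Pgrmc1 750 and 756 in WT against 805 and 782 in KO.

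Other substrates of the Golgi proteases, 6 tested, had a median of −0.06, with 2 higher and 0 lower without overlap (33.3%, against 38.7% of all genes tested). Creb3l3, the liver transcription factor CREBH that the same proteases release, had 98.6 and 109 FPKM in WT against 106 and 96.5 FPKM in KO, and Creb3 21.6 and 19.8 in WT against 23.5 and 25.6 in KO (log2 difference 0.23, limma adjusted p = 0.653). Related proteases, 11 tested, had a median of −0.01 with 2 higher and 1 lower without overlap (27.3%, against the same 38.7%). Furin, a proprotein convertase, had 49.7 and 55.3 FPKM in WT against 48.0 and 46.2 FPKM in KO. Sterol-sensing domain proteins, 4 tested, had a median of 0.07, with 0 higher and 2 lower without overlap (50%, against the same 38.7%). Npc1, the lysosomal cholesterol exporter, had 13.6 and 14.2 FPKM in WT against 9.43 and 11.7 FPKM in KO (log2 difference −0.38, limma adjusted p = 0.570).

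Nuclear cofactors and turnover factors of SREBPs, 21 tested, had a median of 0.04, with 5 higher and 4 lower without overlap (42.9%, against 38.7% of all genes tested). Hnf4a, a hepatocyte transcription factor, had 120 and 106 FPKM in WT against 121 and 143 in KO, and Kpnb1, importin beta, which carries SREBPs into the nucleus, 34.5 and 28.4 in WT against 31.0 and 26.7 in KO. Lpin1, which encodes lipin 1 and is in this list and the lipogenic list, had 7.24 and 8.16 FPKM in WT against 6.18 and 4.90 FPKM in KO (log2 difference −0.42, limma adjusted p = 0.570). LXR and insulin inputs to Srebf1, 20 tested, had a median of −0.03, with 4 higher and 3 lower without overlap (35.0%, against the same 38.7%). Nr1h3, which encodes LXRα, had 74.0 and 73.3 FPKM in WT against 87.8 and 71.8 FPKM in KO. Nr1h2, for LXRβ, had 13.8 and 13.7 in WT against 16.0 and 16.9 in KO (log2 difference 0.24, limma adjusted p = 0.644), and Rxra, their partner, 57.0 and 65.7 in WT against 60.0 and 86.0 in KO.

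The genes next to Srebf1 on chromosome 11, 9 tested, had a median of 0.01, with 1 higher and 2 lower without overlap (33.3%, against 38.7% of all genes tested) and none past the threshold. Tom1l2, a vesicle trafficking gene, had 5.34 and 5.09 FPKM in WT against 3.10 and 3.48 FPKM in KO (log2 difference −0.54, limma adjusted p = 0.298). Pemt, which makes phosphatidylcholine, had 282 and 311 FPKM in WT against 326 and 257 FPKM in KO.

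The genes most like each member were those with the smallest root-mean-square (RMS) difference from it over the 4 libraries, each gene centred on its own mean on the log2 scale, among 5865 genes whose mean reached 5 FPKM. With 4 libraries many genes come close to any pattern, so the names are a description. Nearest to Srebf1 was Pttg1, with 28.4 and 25.5 FPKM in WT against 1.67 and 1.35 FPKM in KO (RMS 0.33), followed by Acacb (0.51) and Tff3 (0.53), so no gene matched Srebf1 closely. Nearest to Srebf2 were Aldh3a2 (RMS 0.04), with 77.1 and 77.5 FPKM in WT against 137 and 105 FPKM in KO, Ccbl2 (0.04) and Phospho1 (0.06). Nearest to Insig1 were Numb (0.01), Sdr39u1 (0.03) and Gsta4 (0.04), and nearest to Insig2 were Cyb5b (0.02), Pfdn4 (0.02) and Zfp655 (0.02). The RMS difference of the nearest gene was 0.01 for Scap (Snx14), for Mbtps1 (H2-T23) and for Mbtps2 (Vbp1).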

How the data were processed

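Liver RNA was sequenced in 4 libraries, with groups and replicate numbers taken from the sample titles. The labels do not say that libraries came from separate animals, so p-values speak only of the spread among samples and that spread may be technical. The authors deposited FPKM values, with each RefSeq transcript on a row of its own, per the file headers. Bowtie, TopHat and the mm10 build are named in the submitters' processing notes; what computed FPKM, how it treated shared exons and whether counting was stranded is not given in the sources used here. Albumin was listed at 0 in each library, so a 0 was read only as listed at 0.

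Rows were summed per gene number, and 56 symbols turned into dates were restored. Genes with a mean of at least 1 FPKM entered limma 3.58.1 (R 4.3.3, intensity trend, group as the single term) on log2(FPKM + 1), with Benjamini-Hochberg adjustment over all genes tested. The same test was run on single rows. The test was checked on simulated data with variances drawn from its own fit and differences larger than those of all members but Srebf1. That check thus does not speak to smaller differences. Fold differences of genes and rows are ratios of mean FPKM. Those of ratios taken within a library come from the difference between group means of the log2 ratio. Lists were described by counts and medians. The members, lists and tests were chosen with earlier results of these data known. Genes named were the members, and from each list those past the threshold, the 3 with the highest mean and the 2 with the smallest p, of which some are left out. Positions and windows came from RefSeq (GRCm38.p6, the assembly of mm10) and exons from GENCODE M21, in which all 12 rows were matched. Alternatives were other pseudocounts (0.1, 0.5), filters (none, 5 FPKM) and scalings (upper quartile, quantile), no trend, a robust prior, a replicate block, leaving out each library, an adjusted p of 0.1 and the highest row of a gene. Tables were made with python 3.11.15 and pandas 2.3.3.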

Additional observations from a re-analysis of the deposited data

How the results depend on the processing

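The log2 difference of Srebf1 stayed between −2.96 and −2.68 under all 14 alternatives. It lost the threshold without a filter (−2.82), without WT replicate 1 and without WT replicate 2, and with 1 library left out it ran from −2.96 to −2.68. Srebf2 stayed positive, between 0.45 and 0.73, and passed only without KO replicate 2 (0.73). Insig1 ran from −0.62 to −0.018 with 1 library left out and passed without KO replicate 1. The signs of 3 members turned when a library was left out. Scap ran from −0.069 to 0.17 (−0.015 without WT replicate 1 and −0.069 without KO replicate 2), Mbtps2 from −0.039 to 0.14 (−0.039 without WT replicate 2) and Insig2 from −0.57 to 0.026 (0.026 without KO replicate 2). Mbtps2 could not be fitted with a minimum of 5 FPKM. The cause of these shifts was not tested.

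The median of the SREBP2 and sterol targets ran from 0.074 to 1.24 with 1 library left out. The 7 genes called became 11 at a pseudocount of 0.1, 0 with low values kept (1233 at an unadjusted limma p under 0.05), 3 with a minimum of 5 FPKM, 4 with quantile scaling and 15 with a robust prior. With 1 library left out they ran from 1 to 306 (1 and 4 without WT replicate 1 or 2, 306 and 117 without KO replicate 1 or 2). The 5 rows called became 3 at a pseudocount of 0.1 and 0 with low values kept (1856 at an unadjusted limma p under 0.05), and ran from 0 to 23 with 1 library left out (0 without either WT replicate, 23 and 13 without KO replicate 1 or 2). With the replicate number as a block 19 genes were called. The numbers mark no shared animal in the labels, the deviations of same-numbered libraries had a correlation of 0.17 over genes, and 2 pairs do not show a pairing. The block changed no call of the 7 genes and added 3 lipogenic targets.

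With 2 libraries a group, a log2 difference of 0.59 with an SE of 0.13, that of Srebf2, did not pass the threshold. Leaving a library out of the ratios was added after the data were seen. The KO minus WT difference of the log2 ratio of Srebf2 to Srebf1 then ran from 3.51 to 3.68.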
